A study of Neurospora crassa with 12 samples.

Results

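Synonymous codons are not used equally, and in *N. crassa* the genes with the strongest preference are mostly those for proteins that the cell makes in large amounts. The codon bias index (CBI) scores this for each gene, from about 0 for random codon use to 1 for exclusive use of the preferred codons. Many preferred codons in this fungus end in C and are read by tRNAs whose first anticodon base is inosine, which the deaminase ADAT2 makes from adenosine. The genes described here are the 195 of 9015 genes with a deposited CBI that reached at least 0.70. In all, 206 genes reached it, and 11 of 17 genes left out by name were among these. The median CBI of the 195 members was 0.754, against 0.211 over all genes, and 42 members reached 0.80.

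The series compares 2 strains of *N. crassa* mycelia in ribosome profiling and in 2 kinds of mRNA-seq, with 2 libraries of each strain and kind, and the 8 mRNA libraries are used here. The strain called WT is 87-3 (*bd*, mating type *a*). The strain called Si*adat2* was made from 301-6 (*bd*, mating type *A*, *his-3*), and it carries a construct at the *his-3* locus that transcribes dsRNA against *adat2* from a promoter induced by quinic acid (QA). Mating type and the *his-3* background differ together with the silencing and cannot be told apart from it. Both strains received the inducer: 3 days in plates and 1 day with shaking, under constant light, in Vogel's medium with 0.1% glucose and 0.01 M QA. The methods of the study add arginine to this medium, and the sample labels list none. The accompanying mRNA-seq was made alongside the ribosome profiling, with cycloheximide (CHX) at 50 μg/ml for 10 min before collection and a ribosome profiling kit. The independent mRNA-seq was made without CHX with TruSeq reagents. The cultures were otherwise grown alike. CHX, RNA extraction, kit, counted region and read processing differ between the kinds and cannot be told apart. The study states that the Joint Genome Institute performed the independent mRNA-seq, so sequencing site and culture batch may differ too. The study calls its replicates biological, and the labels at most number them. The accompanying library of each strain whose label has no number is called replicate 1 here. p-values measure the spread between these libraries.

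The accompanying libraries held 961703 to 2777576 reads in coding sequences, and the depth of the independent libraries is unknown. The targeted gene, *adat2* (NCU01888), had 8 and 25 accompanying reads in the libraries labelled WT and 16 and 90 in those labelled Si*adat2*, a log2 fold change of 0.91 (edgeR, adjusted p = 0.116), and it was listed at 0 in all 4 independent libraries. Reads of the gene and of its construct cannot be separated, so the level does not check the labels, and libraries are named by their labels throughout. Of 5 conidiation genes looked for in these mycelia (*con-6*, *con-8*, *con-10*, *con-13* and *eas*), all 5 had higher accompanying counts in Si*adat2*. Their summed reads made up 0.22% and 0.226% of the WT libraries and 8.4% and 6.73% of the Si*adat2* libraries. In the independent mRNA-seq, the FPKM of the 4 markers other than *eas* summed to 2315 and 2261 in WT against 4346 and 5844 in Si*adat2*. *eas*, at 7859 and 7608 FPKM in WT, has no value in the Si*adat2* tables and could not be compared there. Summed in the same way without *eas*, the accompanying FPKM were 1851 and 1906 in WT against 28390 and 28220 in Si*adat2*. These sums thus differed between the strains in both kinds of library, and far more in the accompanying libraries. *con-6* made up most of each sum, and single markers did not all follow it. Accompanying and independent log2 fold changes were 3.66 and 0.97 for *con-6* and 2.41 and 0.67 for *con-8*. They were 2.74 and 2.65 for *con-10* and 5.81 and 6.80 for *con-13*. The part of these markers in the differences below was not tested. Fewer cells of a type and less RNA per cell cannot be told apart in such samples. The mating type genes could not be matched by symbol and were not checked.

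As a class the members were short genes with high mRNA levels. Their median length in the accompanying tables was 845 bases, against 1523 over all genes. For 143 of 155 members with a known protein length, this length was 200 bases more than 3 times the protein length. It is thus longer than the coding sequence, and whether reads in the added bases were counted is not stated. Levels are given as FPKM, fragments scaled to the length of the gene and to the mapped reads of the library. The median member stood at 732 and 706 FPKM in the accompanying WT libraries and at 439.5 and 406 in the Si*adat2* libraries, where the median of all genes ran from 15.3 to 20.6. In the independent mRNA-seq it stood at 261 and 258 in WT against 297 and 272 in Si*adat2*, where the median of all genes ran from 11.6 to 12.4. The median member thus lay between the percentile ranks of 96.2 and 97.7 in all 8 libraries. High codon bias did not always go with a high level: 4 to 17 members lay below the median gene, depending on the library. The xylanase gene *gh11-1* had at most 10 reads in any accompanying library, and *ccg-4*, a pheromone precursor gene, had 1 read in all 4 together.

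**Figure D1:**
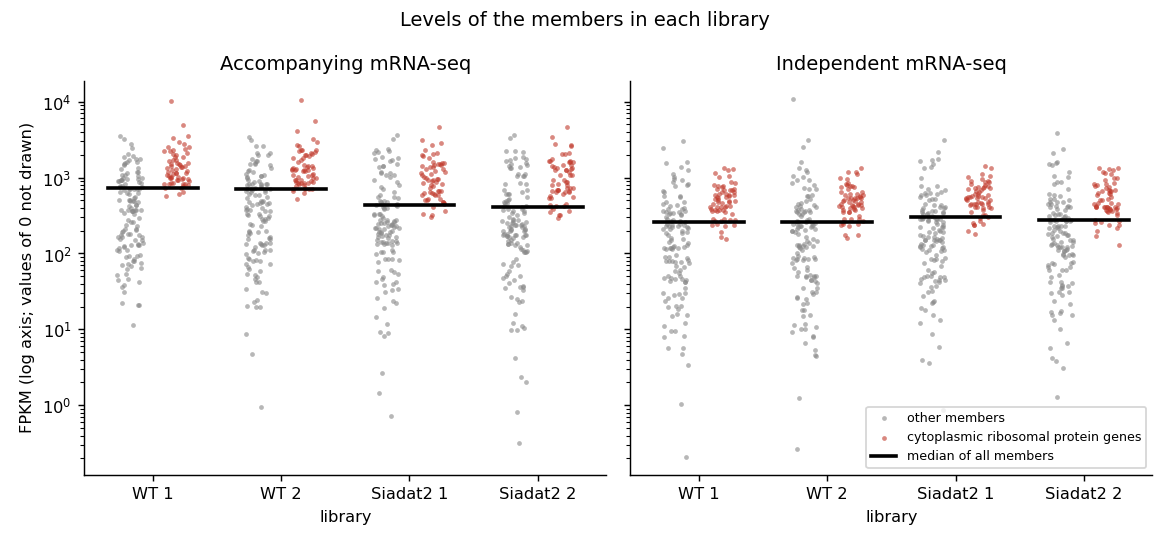
FPKM of each member in each library (log axis), with the 63 cytoplasmic ribosomal protein genes apart from the other members and the median of all members as a bar. The bar falls from 732 and 706 in WT to 439.5 and 406 in Si*adat2* in the accompanying mRNA-seq, and stays between 258 and 297 in the independent mRNA-seq.

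In the accompanying mRNA-seq the members were mostly lower in the libraries labelled Si*adat2*. Of 191 members that passed the filter on low counts, 141 were lower and 15 higher in edgeR's quasi-likelihood test at an adjusted p under 0.05, and 35 were not called. Over all 7362 genes tested, 49.8% were called, 25.9% lower and 23.9% higher. The median log2 fold change was -0.77 over the members and 0.031 over all genes. All members together took 17.1% (95% Wilson interval 17.0 to 17.1) and 16.6% (16.5 to 16.6) of the reads in WT. In Si*adat2* they took 11.8% (11.7 to 11.8) and 11.4% (11.4 to 11.5), so the strains did not overlap in this share. These intervals cover counting error only. The size of the shift rests on the scaling. edgeR's TMM factors put the median gene near 0, whereas scaling to library totals moved it to 0.32, with 120 members lower and 25 higher and a median of -0.49. Beside fold changes from edgeR, FPKM are quoted as deposited and follow the totals.

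The independent mRNA-seq showed no such shift. Of 192 members tested, 48 were higher and 29 lower in Si*adat2* (limma on log2 of FPKM plus 0.1, adjusted p under 0.05), whereas of all 7735 genes 56.8% were called, 23.9% higher and 32.8% lower. The median log2 fold change of the members was 0.094, and that of all genes -0.14. With TMM factors on FPKM these medians were 0.23 and 0.0014, with 59 members higher and 23 lower. The counts depended on single libraries. The median absolute log2 difference between replicates was 0.054 in WT and 0.25 in Si*adat2* over the members. The counts were 72 higher and 56 lower without Si*adat2* replicate 1, and 76 and 43 without replicate 2. Without WT replicate 1 they were 27 and 8, and without WT replicate 2 they were 28 and 7. Of the summed FPKM the members made up 13.3% and 14.7% in WT against 15.5% and 14.98% in Si*adat2*, and the 63 ribosomal protein genes among them 6.36% and 6.01% against 7.23% and 6.93%. In both shares the Si*adat2* libraries were the higher, without overlap, but the genes summed differ between libraries. The gene *ccg-16*, at 10850 FPKM in WT replicate 2, is missing from the table of WT replicate 1. *eas*, at 7859 and 7608 FPKM in WT, has no value in Si*adat2* and is absent from those sums. Whether the order of the shares rests on these gaps was not tested.

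Whether the strain difference itself differed between the kinds was tested with an interaction term over the 8 libraries (limma on log2 of FPKM plus 0.1). The log2 fold change was lower in the accompanying than in the independent mRNA-seq for 104 of 192 members and higher for 24. Over 7303 genes, 54.3% were called, 16.7% lower and 37.6% higher. The median difference was -0.68 over the members and 0.54 over all genes. When each library was divided by its median gene, the median of all genes fell to 0.14, and 137 members were lower and 10 higher, with a median of -1.09. Set side by side, 84 of 190 members tested in both kinds were lower in the accompanying and not called in the independent mRNA-seq, 34 were lower in the first and higher in the second, and 23 were lower in both. Shares of all genes with such pairs of calls are not given, so these counts describe the members alone.

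**Figure D2:**
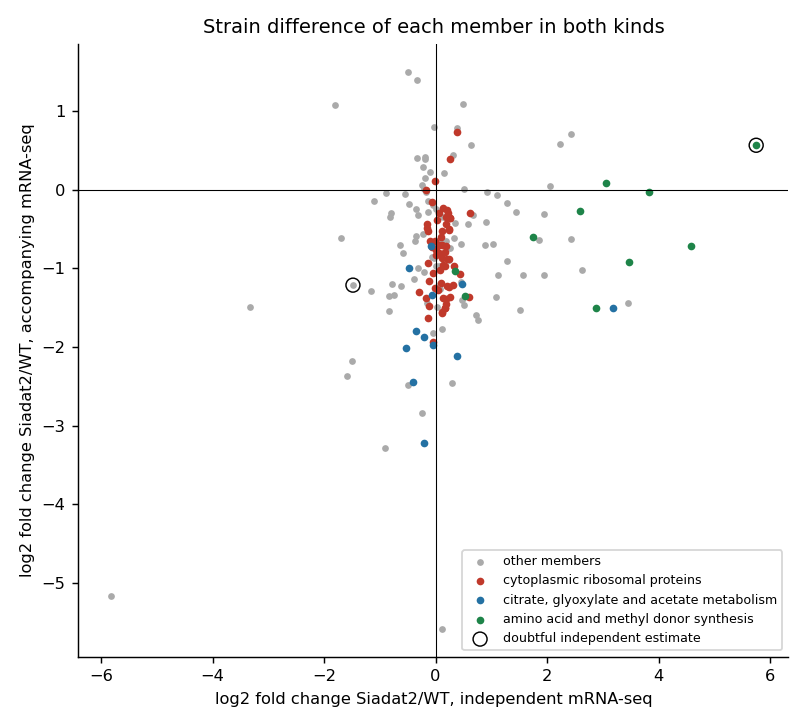
Log2 fold change Si*adat2*/WT of each member in the independent (x axis) and the accompanying mRNA-seq (y axis), coloured by functional group. Ribosomal protein genes form a vertical band near 0 on the x axis, with medians of 0.12 and -0.82, genes of amino acid synthesis extend to the right up to 5.75, and circles mark members with a doubtful independent estimate (3 members listed at 0 in an independent library are left out).

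Set out by CBI, the share of genes called lower in the accompanying mRNA-seq was 15.4% for a CBI under 0 and 33.9% between 0.4 and 0.5. It was 56.5% between 0.6 and 0.7, and 69.3%, 78.7% and 76.2% in 3 bands of members divided at 0.75 and 0.80. The same shares in the independent mRNA-seq were 32.4%, 36.0% and 27.8%, and 20.2%, 8.2% and 14.3% among the members. Genes with more reads are called more easily, and high CBI goes with high levels, so genes of like level are set beside these. Between 500 and 1000 FPKM in the accompanying libraries, 46 of 50 members (92%) and 49 of 92 other genes (53.3%) were lower, with median log2 fold changes of -1.07 and -0.36. Above 1000 FPKM, 40 of 58 members (69%) and 48 of 76 other genes (63.2%) were lower, with medians of -0.55 and -0.64. Within the 191 members, Spearman's rho between CBI and the accompanying log2 fold change was -0.058, against -0.22 over the 7362 genes. The members were chosen by CBI and span only 0.70 to 0.937, and so narrow a range limits rho, so these values are not directly comparable. With length, rho was -0.30 over the members and 0.060 over all genes, and -0.44 within the 63 ribosomal protein genes, so longer members had the lower values. These are correlations across genes of the same libraries.

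**Figure D3:**
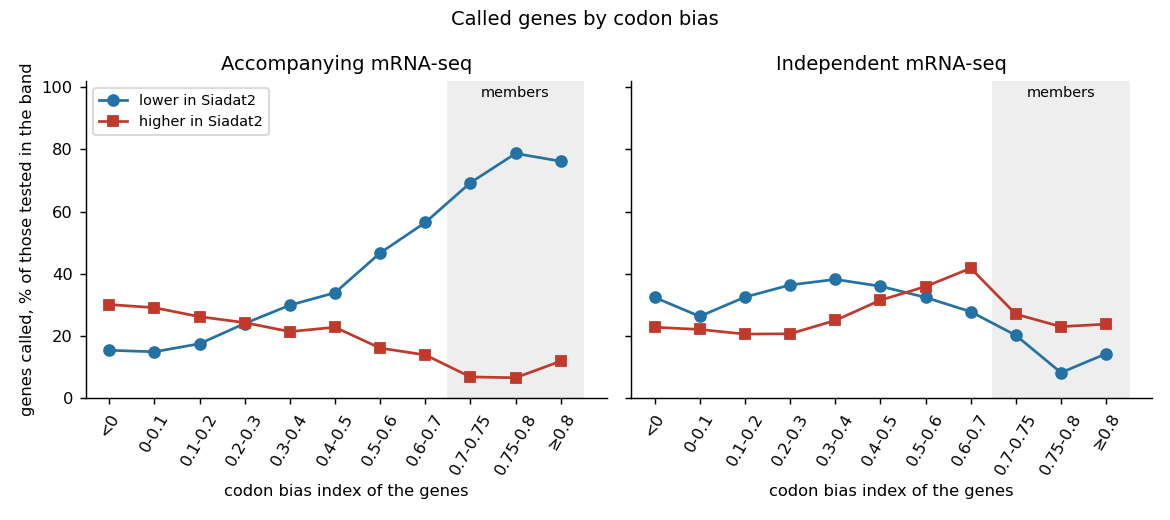
Percent of the genes tested that were called lower (circles) or higher (squares) in Si*adat2*, by band of CBI, in each kind of mRNA-seq, with the members' bands shaded. The circles climb from 15.4% to between 69.3% and 78.7% in the accompanying mRNA-seq and end between 8.2% and 20.2% in the independent mRNA-seq.

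The largest group, 63 members, encodes proteins of the cytoplasmic ribosome, the machine that translates mRNA. In the accompanying mRNA-seq 55 of them were lower, 2 higher and 6 not called, with a median log2 fold change of -0.82. With scaling to library totals, 43 were lower and 4 higher, and with 1 library left out 50 to 55 were lower. In the independent mRNA-seq none was lower and 4 were higher (limma, adjusted p under 0.05), with a median of 0.12 and a range from -0.30 to 0.61. The independent count reached 12 higher with TMM factors on FPKM. It was 17 higher and 9 lower without Si*adat2* replicate 1, 21 and 3 without replicate 2, and 0 in either direction without either WT library. The difference between the kinds was called lower for 38 of the 63 and higher for 3. Together the 63 genes took 7.87% and 7.75% of the accompanying reads in WT against 5.25% and 5.24% in Si*adat2*. The 13 listed ribosomal protein genes with a CBI under 0.70 gave 9 lower and 1 higher in the accompanying mRNA-seq, with a median of -0.73, and 3 higher in the independent mRNA-seq, with a median of 0.24.

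**Figure D4:**
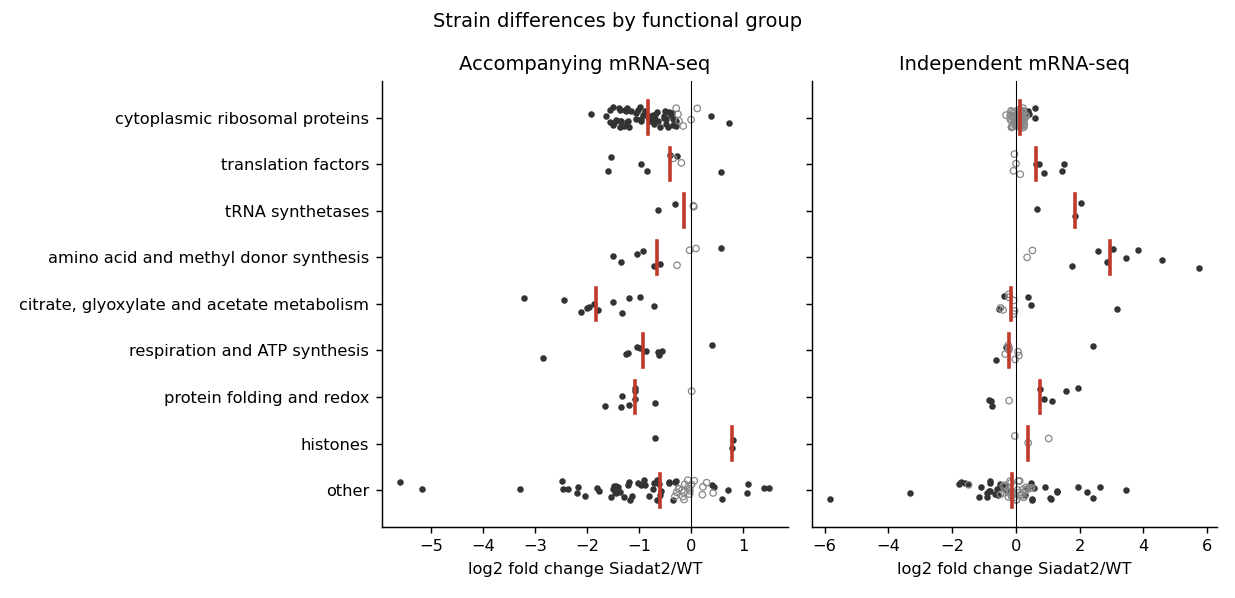
Log2 fold change Si*adat2*/WT of the members by functional group in each kind of mRNA-seq. Filled points passed an adjusted p of 0.05, open points did not, and red bars are medians, which for ribosomal proteins, citrate and glyoxylate metabolism and amino acid synthesis are -0.82, -1.84 and -0.66 on the left and 0.12, -0.14 and 2.97 on the right.

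Ribosomal protein L10a (NCU00294, chromosome III, 3342912 to 3344448 on assembly NC12) had the highest accompanying level of any member. It stood at 10060 and 10350 FPKM in WT against 4605 and 4657 in Si*adat2*, so the strains did not overlap, and its log2 fold change was -1.45 (edgeR, adjusted p = 8.07e-09). Its independent levels were 1139 and 1102 FPKM in WT against 1417 and 1156 in Si*adat2*, a difference of 0.19 that was not called (limma, adjusted p = 0.28). The lowest value in the group was that of *crp-15*, with 1505 and 1257 accompanying FPKM in WT, 480.5 and 416 in Si*adat2* and a log2 fold change of -1.93 (standard error 0.13). Not every gene of the group followed. The fusion gene *ubi::crp-6*, which encodes ubiquitin joined to a ribosomal protein, rose from 1495 and 1698 FPKM to 3120 and 3449 (log2 fold change 0.73, edgeR, adjusted p = 3.21e-05), and its neighbour 151 bases away, *crp-5*, fell from 1533 and 1261 to 991 and 880.1 (-0.88, edgeR, adjusted p = 2.55e-05). *ubi::crp-6* was also higher in the independent mRNA-seq, by 0.39 on the log2 scale (limma, adjusted p = 0.0328), which was not called without either WT library.

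The 5 members with the highest CBI were 4 ribosomal protein genes and *ndk-1*, the gene of a nucleoside diphosphate kinase, an enzyme that passes phosphate between nucleotides. The gene of S29 (NCU03738, CBI 0.937) had 2510 and 2267 accompanying FPKM in WT and 2126 and 2065 in Si*adat2*, with a log2 fold change of -0.49 (edgeR, adjusted p = 0.00116), which was not called with scaling to library totals (adjusted p = 0.104). S28 (NCU05599, CBI 0.88) fell by 0.81 and L26 (NCU03565, CBI 0.869) by 0.77, and neither was called in the independent mRNA-seq. L30 (NCU08963, CBI 0.862) went the other way, from 894 and 836 accompanying FPKM in WT to 1388 and 1400 in Si*adat2*, a rise of 0.39 on the log2 scale (edgeR, adjusted p = 0.00667) that was not called without WT replicate 2. *ndk-1* (CBI 0.872) rose further: its accompanying levels were 699.5 and 684 FPKM in WT against 2284 and 2223 in Si*adat2*. Its log2 fold change was 1.4 (standard error 0.10, edgeR, adjusted p = 2.21e-08), while its independent levels of 551 and 577.5 in WT against 393 and 507 in Si*adat2* gave -0.34 (limma, adjusted p = 0.125). L30 and its neighbour L10 (NCU08964) overlap in the annotation, and the counts carry no stated strand for them, so their reads may be shared.

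Translation factors, which bring tRNAs and ribosomes to the mRNA and move the ribosome along it, gave 9 members. Of these 6 were lower and 1 higher in the accompanying mRNA-seq, and 5 were higher and none lower in the independent mRNA-seq. The accompanying count was 4 lower with scaling to library totals, and the independent count was 2 higher without either WT library. Both factors that carry the names of bacterial elongation factors fell in the first and rose in the second. Elongation factor Tu (NCU03737) had 119.9 and 139 accompanying FPKM in WT and 59 and 53.1 in Si*adat2* (log2 fold change -1.53, edgeR, adjusted p = 5.89e-07). Its independent levels were 15.2 and 15.3 in WT against 50.8 and 37.5 in Si*adat2* (1.51, limma, adjusted p = 0.00291). Elongation factor G 1 (NCU02955) moved alike, by -1.59 and 0.73, with the independent rise lost when either WT library was left out. Elongation factor 3 (NCU07922), a fungal factor needed in each round of elongation, had 129 and 136 independent FPKM in WT and 405 and 322 in Si*adat2* (1.45, limma, adjusted p = 0.002). In the accompanying mRNA-seq its levels overlapped, at 275 and 267 in WT against 278 and 274 in Si*adat2*. The edgeR value of -0.28 (adjusted p = 0.0294) turned to 0.0059 with scaling to library totals, and it was not called with DESeq2 or when any library other than Si*adat2* replicate 1 was left out.

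The gene of elongation factor 1-gamma (NCU03826) had values of -0.41 and 0.90, the first not called with scaling to library totals or without WT replicate 2 and the second not called without either WT library. The gene of initiation factor 1A (NCU07437) was higher in both kinds, by 0.57 (edgeR, adjusted p = 0.0141) and 0.64 (limma, adjusted p = 0.0114), but both calls were lost when single libraries were left out. The 3 genes of initiation factor 3 subunits (NCU05889, NCU06279 and NCU07380) had accompanying values of -0.34, -0.97 and -0.86, the first not called, and independent values from -0.072 to 0.14 that were not called. *eif5A*, whose product helps ribosomes past difficult stretches of sequence, was among the members with the highest independent levels, with 1605 and 1593 FPKM in WT against 1627 and 1485 in Si*adat2*. It was called in neither kind, with values of -0.19 and -0.041. With a replicate block *eif5A* and NCU05889 were called lower in the accompanying mRNA-seq, which made 8 lower and 1 higher of the 9 factors. Of 25 listed translation factor genes with a CBI under 0.70, 11 were lower and 4 higher in the accompanying and 13 higher and 1 lower in the independent mRNA-seq.

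The 3 histone members package DNA, and they did not move as 1 group. *hH4-1* and *hH4-2*, both genes of histone H4, rose in the accompanying mRNA-seq from 751 and 643 FPKM to 1667 and 1321 and from 698 and 588 to 1402 and 1324. Their log2 fold changes were 0.80 and 0.79 (edgeR, adjusted p = 0.000163 and 5.21e-05). *hH3*, the neighbour of *hH4-1* on chromosome II with 1702 bases between them, fell by 0.70 (edgeR, adjusted p = 9.05e-05). None was called in the independent mRNA-seq. There *hH3* stood at 1395 and 386 FPKM in WT against 1497 and 1506 in Si*adat2*, so 1 WT replicate decides its value. The H4 genes encode near-identical proteins, and whether reads were shared between the 2 genes was not tested.

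The 12 members of citrate, glyoxylate and acetate metabolism carry carbon from acetyl-CoA to energy or to sugar, and all 12 were lower in the accompanying mRNA-seq, with a median log2 fold change of -1.84 and a range from -3.22 to -0.72. All 12 were lower also with scaling to library totals, and 11 with limma on log2 FPKM. In the independent mRNA-seq 3 were higher, 2 lower and 7 not called, with a median of -0.14. With Si*adat2* replicate 1 left out these counts were 3 higher and 8 lower, and with replicate 2 left out 4 and 4. Without either WT library there was 1 higher and none lower. Annotated transcripts alone, a replicate block and no filter on low values each gave 1 higher and 1 lower, and without doubtful estimates there were 3 higher and 4 lower. *acu-8*, the gene of an acetyl-CoA hydrolase, had 375 and 335 accompanying FPKM in WT and 46.7 and 47.6 in Si*adat2* (log2 fold change -3.22, standard error 0.13, edgeR, adjusted p = 2.89e-11). Its independent levels overlapped, at 47.6 and 52.1 in WT against 49.1 and 37.7 in Si*adat2*. The malate dehydrogenase gene *tca-15* showed the same order, from 883 and 797 accompanying FPKM to 198 and 183 (-2.45), beside 196 and 196 against 169 and 131 in the independent mRNA-seq (-0.40, limma, adjusted p = 0.0802).

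Both enzymes particular to the glyoxylate cycle fell in the accompanying mRNA-seq, and their independent values were positive. *acu-3*, the gene of isocitrate lyase, had 919.8 and 825 accompanying FPKM in WT and 403 and 359.6 in Si*adat2* (-1.5, edgeR, adjusted p = 3.1e-08). Its independent levels were 61.3 and 60.1 in WT against 580.3 and 520.0 in Si*adat2* (3.18, limma, adjusted p = 0.000152), and the interaction was -4.37 (limma, adjusted p = 1.88e-06). *acu-9*, the malate synthase gene, went from 1480 and 1354 to 403 and 406 in the first (-2.12) and from 366 and 363 to 512 and 442 in the second (0.38, limma, adjusted p = 0.04), a call lost under each setting above that left 1 gene higher. *acu-6*, whose product phosphoenolpyruvate carboxykinase starts the path back to sugar, had values of -1.20 and 0.48, and its independent call was lost under the same settings. The 14 listed genes of this group with a CBI under 0.70 included 12 that were lower in the accompanying mRNA-seq, with a median of -1.27.

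**Figure D5:**
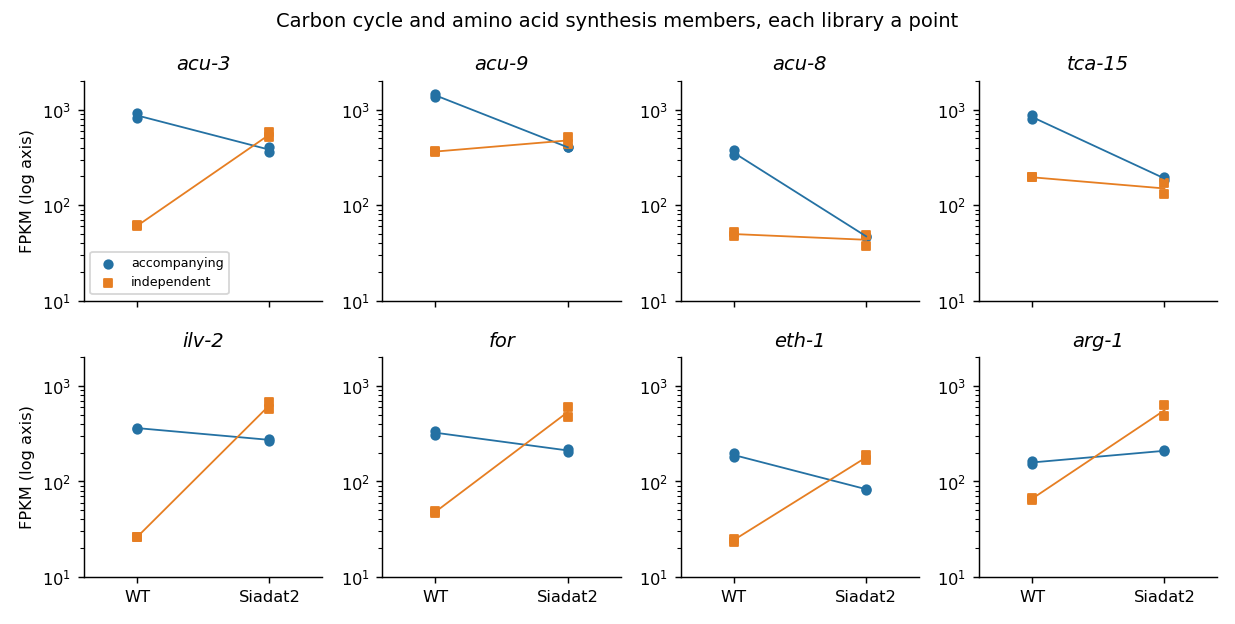
FPKM of 4 members of citrate, glyoxylate and acetate metabolism (top) and 4 of amino acid synthesis (bottom) in WT and Si*adat2*, each library a point and each line joining strain means (log axis). In *ilv-2* the independent libraries rise from 26.1 and 26.2 to 682 and 578, while the accompanying libraries fall from 368 and 358 to 279 and 267.

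The 10 members of amino acid and methyl donor synthesis showed the largest median difference between the kinds among these groups, -3.11. There were 8 higher and none lower in Si*adat2* in the independent mRNA-seq, with a median log2 fold change of 2.97. Of the same 10, 6 were lower and 1 higher in the accompanying mRNA-seq, with a median of -0.66, and the interaction was called lower for all 10. The 35 listed genes of this group with a CBI under 0.70 gave 25 higher and 2 lower in the independent mRNA-seq. In the accompanying mRNA-seq they gave 17 lower and 3 higher, and the interaction was called lower for 27 and higher for 4. *ilv-2*, whose product ketol-acid reductoisomerase makes branched-chain amino acids, had 26.1 and 26.2 independent FPKM in WT and 682 and 578 in Si*adat2* (4.58, standard error 0.11, limma, adjusted p = 0.000127). Its accompanying levels were 368 and 358 in WT against 279 and 267 in Si*adat2* (-0.72, edgeR, adjusted p = 5.74e-05). The accompanying WT libraries thus stood far above the independent WT libraries, while the Si*adat2* libraries of both kinds were high. Levels of the 2 kinds are not on a common scale. The median member itself stood at 732 and 706 FPKM in accompanying WT and at 261 and 258 in independent WT.

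The same order held for *for*, which encodes serine hydroxymethyltransferase. Its independent levels rose from 46.4 and 49.6 FPKM to 597 and 472 (3.46), and its accompanying levels fell from 340.5 and 308 to 217 and 206 (-0.92). *eth-1* encodes S-adenosylmethionine synthetase and had values of 2.87 and -1.5, and the aspartate aminotransferase gene NCU08411 had 1.76 and -0.60. 4 further members rose in the independent mRNA-seq without being lower in the accompanying mRNA-seq. The aminotransferase gene NCU04292 rose by 3.82 (30.6 and 35.3 to 518 and 418 FPKM), *arg-1*, the argininosuccinate synthase gene, by 3.06, and the dihydroxy-acid dehydratase gene NCU04579 by 2.58. *am*, the gene of the glutamate dehydrogenase that uses NADP, had 3.38 and 4.62 independent FPKM in WT, where the estimate carries a status of low data, and 237 and 201 in Si*adat2*. Its accompanying levels also rose, from 91.6 and 105 FPKM to 189 and 175 (0.57, edgeR, adjusted p = 0.00209). *cys-18* and *met-8*, which act in methionine and methyl group metabolism, had accompanying values of -1.36 and -1.04, both called, and were not called in the independent mRNA-seq.

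Aminoacyl-tRNA synthetases load tRNAs with their amino acids, and 4 are members. The genes for asparaginyl-, leucyl- (*leu-6*) and glutamyl-tRNA synthetase rose in the independent mRNA-seq by 2.05, 1.85 and 0.67 on the log2 scale. The glutamyl-tRNA synthetase call was lost without either WT library. The last 2 genes had accompanying values of -0.64 and -0.32, both called, the second not with scaling to library totals, and the first had 0.049. The median of the group changed sign with scaling to library totals, from -0.14 to 0.15. The prolyl-tRNA synthetase gene NCU04449 was listed at 0 in 1 independent WT library and at 10.1 FPKM in the other, and it is not described further. Of the 22 listed synthetase genes with a CBI under 0.70, 17 were higher in the independent and 13 lower in the accompanying mRNA-seq.

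The 10 members of respiration and ATP synthesis build the mitochondrial electron transport chain and its ATP synthase. Of them 9 were lower and 1 higher in the accompanying mRNA-seq, with a median of -0.93. In the independent mRNA-seq 1 was higher and 2 lower, with a median of -0.21, which became 2 and 5 without Si*adat2* replicate 1 and 1 and 0 without either WT library. Core protein 2 of ubiquinol-cytochrome c reductase (NCU03559) had 1925 and 2091 accompanying FPKM in WT and 326 and 365 in Si*adat2* (-2.84, standard error 0.11, edgeR, adjusted p = 1.89e-11), but 117 and 125 against 108 and 97.4 in the independent mRNA-seq (-0.24, limma, adjusted p = 0.0997). *cyc-1*, the cytochrome c gene, rose in the independent mRNA-seq from 115 and 128 FPKM to 522.5 and 822 (2.43) and had an accompanying value of -0.62. The 1 higher gene in the accompanying mRNA-seq was that of cytochrome c oxidase subunit VIb (NCU06741), with 0.41. *oli*, the gene of the ATP synthase proteolipid, had 2441 and 2501 independent FPKM in WT and 2149 and 2095 in Si*adat2*, a difference of -0.22 that was not called. Of 9 listed genes of this group with a CBI under 0.70, 8 were lower and none higher in the accompanying mRNA-seq, with a median of -0.70. In the independent mRNA-seq 7 of these 9 were lower and 1 higher, with a median of -0.61.

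Protein folding and redox gave 9 members, and the chaperone genes among them did not move as 1 group. *hsp60*, *hsp70-2*, *hsp70-5*, the *dnaK* type gene NCU00692 and the chaperonin gene NCU04334 fell in the accompanying mRNA-seq, with values from -1.66 to -0.70, and rose in the independent mRNA-seq, with values from 0.75 to 1.95. *hsp70-2* had 90.7 and 94 independent FPKM in WT and 411 and 312 in Si*adat2*. *hsp80*, *hsp70-1* and the superoxide dismutase gene *sod-1* instead fell in both, with accompanying values of -1.35, -1.34 and -1.20 and independent values of -0.84, -0.74 and -0.78, and their interaction values were not called. These 8 independent calls became 1 without WT replicate 1 and 2 without WT replicate 2. *rhd*, a peroxiredoxin gene, was called in neither kind. The 18 listed genes of this group with a CBI under 0.70 gave 14 lower and 2 higher in the independent mRNA-seq. In the accompanying mRNA-seq they gave 8 lower and 3 higher.

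Single members came from the pentose phosphate pathway and the cytoskeleton. The transaldolase gene NCU02136 had values of -0.68 and 0.46, both called, the second not without either WT library, and *Bml*, the gene of the microtubule subunit beta-tubulin, was called in neither kind, with 0.16 and -0.19.

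Outside these groups stood 73 members. In the accompanying mRNA-seq 41 of 69 tested were lower (59.4%, against 25.9% of all genes) and 8 higher (11.6%, against 23.9%). Of 70 tested in the independent mRNA-seq, 22 were lower (31.4%) and 18 higher (25.7%), shares near those of all genes, 32.8% and 23.9%. The independent counts were 8 and 11 without WT replicate 1, and 7 and 11 without WT replicate 2. *xr*, the xylose reductase gene, fell in both kinds, and its accompanying counts of 5 and 8 reads in Si*adat2* are low. It had 73.0 and 73.3 accompanying FPKM in WT and 2.65 and 2.38 in Si*adat2*, and 224 and 226 against 3.9 and 3.84 in the independent mRNA-seq, with log2 fold changes of -5.16 (edgeR, adjusted p = 1.33e-09) and -5.83 (limma, adjusted p = 9.32e-05). The formate dehydrogenase gene *fdh* also fell in both, with values of -1.5 and -3.33, as did NCU05163, for which no function is given, with -2.37 and -1.58. By contrast NCU00265, for which no function is given, had 372 and 369 accompanying FPKM in WT and 9.21 and 9.73 in Si*adat2* (-5.58, edgeR, adjusted p = 2.42e-12), but overlapping independent levels of 15.5 and 18.3 in WT against 19.0 and 17.3 in Si*adat2*. *acd-2*, an acyl-CoA dehydrogenase gene of fatty acid oxidation, fell by 3.28 in the first and by 0.91 in the second, the latter not called without either WT library.

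The 190 members tested in both kinds included 2 that rose in the accompanying and fell in the independent mRNA-seq. The share of all genes with this pair of calls is not given. NCU01424, described by its DUF636 domain, went from 208 and 232 FPKM to 541 and 615 in the first (1.08, edgeR, adjusted p = 4.35e-06) and from 1106 and 1186 to 283 and 384 in the second (-1.80, limma, adjusted p = 0.00204). *mig-4*, described as an oxidoreductase gene, had 61 and 62 accompanying reads in WT and 205 and 401 in Si*adat2*, which is 46.4 and 19.5 against 98.6 and 108 FPKM (1.5), and an independent value of -0.49 that was not called without either WT library. NCU07972, described as a hypothetical protein, rose by 1.09 in the accompanying mRNA-seq and was not called in the independent mRNA-seq, with 0.49. The UTP-glucose-1-phosphate uridylyltransferase gene NCU02797, which makes the sugar donor of cell wall and glycogen synthesis, was lower in both, with values of -0.61 and -1.70.

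The remaining members with the highest independent levels were *hex-1*, *cmt* and NCU09089. *hex-1*, the gene of the Woronin body protein that plugs septal pores, had 3047 and 3139 FPKM in WT against 1770 and 1562 in Si*adat2* (-0.89, limma, adjusted p = 0.00415), a call lost when either WT library was left out, and it was not called in the accompanying mRNA-seq (-0.035). *cmt*, which encodes copper metallothionein, had 1534 and 1331 independent FPKM in WT and 3138 and 3889 in Si*adat2* (1.29, limma, adjusted p = 0.0038, also lost without either WT library). Its accompanying reads numbered 75 and 206 in WT against 76 and 164 in Si*adat2* (-0.90, edgeR, adjusted p = 0.000683). NCU09089 had values of -0.74 and 0.25, the second not called. *ccg-16* was missing from the table of 1 independent WT library and was left out of those fits, with 10850 FPKM in the other WT library and 1719 and 2400 in Si*adat2*.

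The independent tables list 0 in at least 1 library for 4 members, among them NCU04148, which had at most 1 read in any accompanying library. NCU06943 had 269 and 578 accompanying reads in WT and 119 and 176 in Si*adat2* (-2.20, edgeR, adjusted p = 1.44e-08), and it was listed at 0 in both independent WT libraries and at 27.6 and 23.6 FPKM in Si*adat2*. *mig-2* had 48 and 114 reads in WT and 20 and 43 in Si*adat2* (-2.05), and independent values of 0 and 0 FPKM in WT against 15.3 and 13.5 in Si*adat2*. Both genes overlap a neighbour in the annotation. A 0 here can be a failed estimate, so no fold is given, although both count among the 48 higher members above. Of the 192 members tested there, 187 had no doubtful estimate, and fitted without the doubtful genes they gave 50 higher and 33 lower.

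At the threshold itself, the 3 members just inside were *fes-1* (CBI 0.70), *inl* (0.70) and *crp-5* (0.701). *fes-1*, of the respiratory chain, had log2 fold changes of -1.26 in the accompanying and 0.071 in the independent mRNA-seq, and *inl*, the inositol phosphate synthase gene, 0.59 and 2.23. Just under it were *ace-4* (0.699) with -0.48 and 0.39, NCU08949 (0.699) with -0.039 and -1.33, and *hH2B* (0.698) with 0.0545 and -0.0029. Along the genome the members lay on all 7 chromosomes, with 53 on chromosome I and 15 each on IV and VI, and 20 of them formed 10 pairs of direct neighbours. In 8 of these pairs at least 1 gene encodes a ribosomal protein, and in 3 pairs the accompanying values of the neighbours had opposite signs and both were called: *hH3* and *hH4-1*, *crp-5* and *ubi::crp-6*, and L10 and L30. A total of 67 members overlap another annotated gene, and these gave 46 lower and 7 higher of 66 in the accompanying mRNA-seq, with a median of -0.65, against -0.88 for the members that overlap none.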

How the data were processed

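For the accompanying mRNA-seq the authors discarded reads under 25 nt, mapped the rest with Bowtie2 to coding sequences extended at both ends, and deposited the count of unique reads per gene, an FPKM made from it and the CBI as a score from CodonW. The independent tables, as the authors deposited them, hold 1 FPKM and 1 coverage signal per transcript (assembly NC12). The submitters' notes name TopHat2 and Cufflinks. Columns of ribosome occupancy were not used here.

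Counts were tested with edgeR 4.0.16 (TMM scaling, the quasi-likelihood functions glmQLFit and glmQLFTest, and filterByExpr at a minimum of 10 reads) over all genes. Independent FPKM were summed per gene over annotated transcripts and over assembled transcripts overlapping it by at least 50% of both spans, a choice made after seeing that reads of an annotated gene could be listed under an assembled transcript. With it, genes differing over 2-fold between the WT replicates numbered 52, and without it 168. Genes with a mean of at least 1 were tested as log2(FPKM + 0.1) with limma 3.58.1 (trend), and the interaction with limma on the FPKM of all 8 libraries. Fold changes of low genes are understated on this scale. p-values were adjusted by the Benjamini-Hochberg method over all genes tested, with a threshold of 0.05. Versions were R 4.3.3, Python 3.11.15, pandas 2.3.3, numpy 2.4.6, scipy 1.17.1 and matplotlib 3.10.9, with DESeq2 1.42.0 as an alternative. The fits were checked on simulated data that gave all genes and both strains the same setting of spread. The replicates here spread unequally between the strains, which this check does not cover.

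Accompanying totals of 961703 to 2777576 reads set the precision, and intervals cover counting error only, since reads carry no molecular identifiers. Groups were formed from protein descriptions and gene symbols, with descriptions for 155 members, and all 195 matched the NCBI gene table. The 26 members with neither were named by identifier. The members, lists and tests were chosen with earlier results of these data known, and the groups of citrate metabolism and tRNA synthetases were set after the files were seen. Named genes were the 5 with the highest CBI, the 5 with the highest independent level, up to 5 higher and 5 lower in each test by size of the log2 fold change, all histones and translation factors, the genes next to the threshold and *adat2*. Other names illustrate a group, and their values were known when they were chosen. Alternatives were the scalings, filters, pseudocounts, tools, a replicate block and leaving out each library.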

Additional observations from a re-analysis of the deposited data

Results flagged for a closer look

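The strain difference of a member was tested for a difference between the kinds of mRNA-seq, and results that passed the test (limma, adjusted p under 0.05) are given here as the accompanying minus the independent log2 fold change. Of 192 members tested, it was lower for 104 (54.2%) and higher for 24 (12.5%), against 16.7% and 37.6% of all genes. These values lie on a scale where the median of all genes is 0.54. CHX, RNA extraction, kit, counted region and read processing differ between the kinds, sequencing site and culture batch may differ too, and their part was not tested.

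Among genes of metabolism and respiration, negative values were -4.99 for *ilv-2*, -4.86 for *am*, -3.55 for NCU04292, -2.70 for *acu-8*, -2.30 for NCU03559, -1.35 for *inl* and -1.02 for *fes-1*. Among genes of translation they were -2.71 for elongation factor Tu (NCU03737), -2.01 for elongation factor G 1 (NCU02955), -1.42 for elongation factor 3 (NCU07922), -1.0 for elongation factor 1-gamma (NCU03826), -0.78 for *crp-5* and -0.57 for S28 (NCU05599). The others were -5.38 for NCU00265, -2.06 for *acd-2*, -1.88 for *cmt* and -0.71 for NCU09089.

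Positive values were 3.19 for NCU01424, 2.27 for *mig-4*, 2.14 for *fdh*, 2.04 for *ndk-1*, 1.39 for NCU02797, 1.16 for *hex-1*, 1.12 for *hH4-1*, 1.02 for *xr*, 0.88 for NCU07972, 0.70 for *hH4-2* and 0.43 for L30 (NCU08963). With each library divided by its median gene, the last 3 were not called. The calls of *hH4-2*, L30, NCU07972, *crp-5*, S28 and NCU09089 were also lost when single libraries were left out.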

How the results depend on the processing

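The median of the members in the accompanying mRNA-seq was negative under each alternative run. Scaling to library totals gave 25 higher and a median of -0.49, and limma on log2 FPKM gave 23 higher and 109 lower with a median of -0.49. With 1 library left out, 130 to 141 were lower and 12 to 18 higher, with medians from -0.84 to -0.71. The independent counts were less stable. With 1 library left out, 27 to 76 were higher and 7 to 56 lower, with medians from 0.0287 to 0.14. TMM factors moved the median to 0.23, and a ratio of mean FPKM past 2-fold, with no test, gave 27 higher and 9 lower. The difference between the kinds gave 10 higher and a median of -1.09 with libraries divided by their medians, and 86 to 109 lower, 16 to 28 higher and medians from -0.72 to -0.62 with 1 library left out. Where the lone library of a strain remained, it was assumed to vary like the others. Annotated transcripts alone and doubtful estimates left out, both chosen after seeing the data, moved no count over all members by over 1.5 times, but the citrate, glyoxylate and acetate group in the independent mRNA-seq went from 3 higher and 2 lower to 1 and 1 and to 3 and 4. With the replicate block the counts were 149 lower and 18 higher in the accompanying, 24 and 43 in the independent mRNA-seq and 104 and 24 for the difference. The correlation of same-numbered deviations was 0.22 in the accompanying and -0.044 in the independent mRNA-seq. The study lists the footprint libraries of both strains by a first experiment and a second replicate. The accompanying mRNA-seq used the other part of those samples, so its same-numbered libraries may be pairs. No label ties a number to a shared day, and with 2 pairs the main fits did not take the numbers as pairs. The block moved independent group counts from 4 to 2 higher for ribosomal proteins, from 2 to 1 lower for respiration and from 3 and 2 to 1 and 1 for citrate metabolism. Of 1462 values of named genes under alternatives, 1356 kept their call, 63 lost it, 40 gained it and 3 changed sign. Elongation factor 3 (NCU07922) had 0.0059 with library totals and 0.0245 with limma on log2 FPKM in the accompanying mRNA-seq, and initiation factor 3 gene NCU06279 had -0.21 in the independent mRNA-seq without Si*adat2* replicate 1. The independent depth is unknown, and a level near 0 there cannot be told from a failed estimate.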
